A study of Mus musculus with 2 samples.

Results

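The 6 genes described here are imprinted long noncoding genes of the mouse: Airn, Kcnq1ot1, H19, Meg3, Rian and Mirg. Their listed transcripts were taken by position, as every line of the deposited mm9 transcript list that overlapped 1 of 4 windows on either strand. The windows were chr17:12930000-13060000 for Airn, chr7:150390000-150490000 for Kcnq1ot1, chr7:149755000-149770000 for H19 and chr12:110770000-111010000 for Meg3, Rian and Mirg, which lie side by side. They held 145 of the 110003 lines of the list: 64 at Airn, 44 at Kcnq1ot1, 0 at H19 and 37 at Meg3, Rian and Mirg.

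The RNA was that of the pluripotent stem cell line V6.5, derived from mouse embryos and grown over irradiated mouse embryonic fibroblasts, with no other treatment or genotype named. Polyadenylated RNA gave 1 library and RNA depleted of ribosomal RNA gave another, both strand-specific, so each kind of RNA had 1 sample. What was analysed is 1 pooled list of transcript positions, strands and exon blocks, with no read counts, no gene names and no mark of the library behind a line. The depth behind each line is therefore unknown, no level or test can be given, and whether a line came from the stem cells or the feeder cells cannot be told apart. The labelled cell type was not checked against markers, since the list carries no expression value.

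Imprinted genes are expressed mainly from the copy of 1 parent, and their domains are controlled by differentially methylated regions. Airn and Kcnq1ot1 are very long, mostly unspliced RNAs made from the paternal copy, each starting inside a protein-coding gene on the opposite strand, and both are known for silencing neighbouring genes on the same chromosome. H19, Meg3, Rian and Mirg are made from the maternal copy and are processed into spliced noncoding RNAs, with microRNAs or small nucleolar RNAs cut from their transcripts. The list does not separate parental alleles.

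The 6 genes fell into 3 patterns. Airn and Kcnq1ot1 had 57 and 43 lines of their own strand, whose exons covered 38.8% and 39.7% of the gene spans. These lines were spread from the annotated starts onward, with stretches of up to 11623 and 11749 bp free of their exons. Mirg had 3 short spliced lines near its 5′ end that covered 6.26% of its span. H19, Meg3 and Rian had 0 lines of their own strand anywhere within their annotated spans, and Rian had 5 lines on the opposite strand. With lines of U names left out, the coverage was 25.8% for Airn, 22.9% for Kcnq1ot1 and 2.26% for Mirg.

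**Figure D1:**
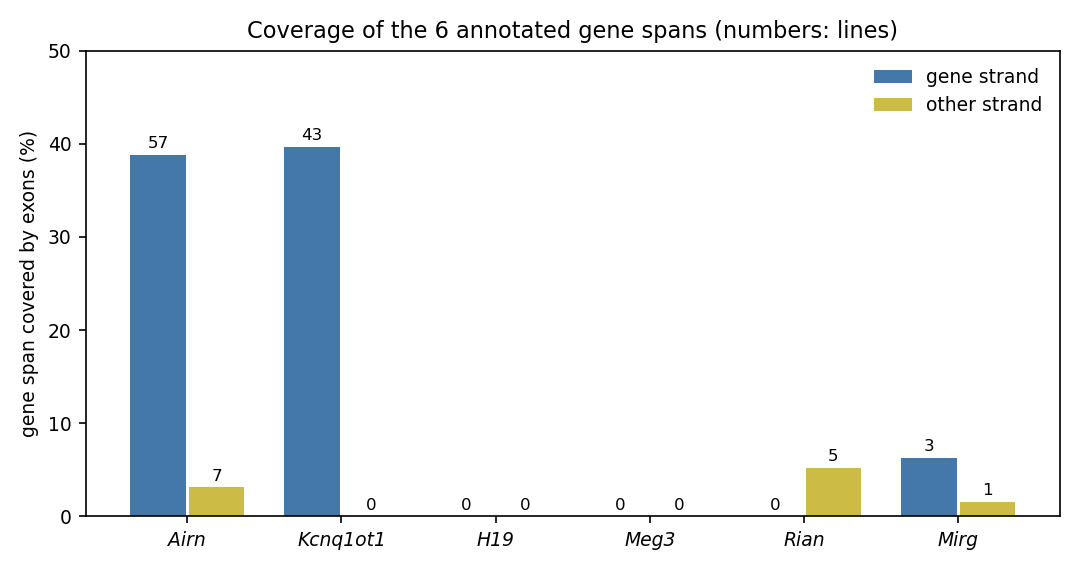
Percent of each annotated gene span (GENCODE M21) covered by exons of listed lines, on the strand of the gene and on the other strand, with the number of lines above each bar. Airn and Kcnq1ot1 stand at 38.8% and 39.7%, Mirg at 6.26%, and H19, Meg3 and Rian at 0 on their own strands.

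Because the list is on mm9 and the annotation used here is on GRCm38, genes were placed by distance. Introns of listed lines whose lengths equal those of annotated introns served as fixed points. The difference in position shared by the most such introns of a locus was applied to its whole window. At Airn 11 of 16 introns in and around the window shared 1 difference in position between the builds, at Kcnq1ot1 16 of 21, at H19 10 of 16 and at Meg3, Rian and Mirg 5 of 16, while no other difference was shared by more than 1 intron. The fixed points lay on both sides of the windows of Kcnq1ot1, H19 and Meg3 to Mirg, and at Airn they ended 582 bp short of the last listed base. Inside the windows of Kcnq1ot1 and H19 there were 0 fixed points. Meg3 and Rian lay in a stretch without any, between mm9 positions 110742292 and 110934340. Equal spacing does not show that every base between fixed points is the same in both builds.

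The exon junctions below are those that carry the identification of Airn and Mirg, since each belongs to an annotated intron that a listed line also had at the same relative position. Each shows 20 nt on either side, 5′ to 3′ on the strand of the gene, from the GENCODE M21 transcripts (GRCm38), and capitals mark the downstream exon.
Airn, 73071 bp intron of FT34360: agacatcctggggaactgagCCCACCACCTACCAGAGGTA
Airn, 88400 bp intron of U017499-3: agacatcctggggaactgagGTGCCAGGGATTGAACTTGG
Airn, 117682 bp intron of U017499-2: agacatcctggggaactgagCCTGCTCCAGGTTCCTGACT
Airn, 31385 bp intron of U017499-4: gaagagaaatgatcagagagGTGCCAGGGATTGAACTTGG
Airn, 13030 bp intron of U017499-1: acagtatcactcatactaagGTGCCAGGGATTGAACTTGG
Airn, 288 bp intron of U017499-2: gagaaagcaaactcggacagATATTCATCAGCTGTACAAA
Mirg, 227 bp intron of U219813-1: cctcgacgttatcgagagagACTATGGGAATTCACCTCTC
Mirg, 366 bp intron of BROAD10704: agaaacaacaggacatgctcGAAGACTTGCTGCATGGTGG
The first 3 Airn junctions leave from the same first exon and reach 3 different downstream exons. The junctions of the 88400, 31385 and 13030 bp introns enter the same downstream exon from 3 different upstream ones.

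The promoters of Airn and Kcnq1ot1 are shown because listed lines began at or near the annotated starts. The windows run from 250 bases before to 50 bases after the start (RefSeq, GRCm38.p6), and capitals mark CCAAT, which was searched on both strands as CCAAT or ATTGG.
Airn, chr17:12741061-12741360, plus strand: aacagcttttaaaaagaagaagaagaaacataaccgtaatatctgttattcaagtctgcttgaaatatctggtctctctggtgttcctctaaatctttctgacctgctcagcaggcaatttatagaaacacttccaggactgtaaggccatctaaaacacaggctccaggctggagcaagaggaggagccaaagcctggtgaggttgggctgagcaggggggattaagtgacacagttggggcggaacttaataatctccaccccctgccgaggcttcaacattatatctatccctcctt
Kcnq1ot1, chr7:143296498-143296797, minus strand: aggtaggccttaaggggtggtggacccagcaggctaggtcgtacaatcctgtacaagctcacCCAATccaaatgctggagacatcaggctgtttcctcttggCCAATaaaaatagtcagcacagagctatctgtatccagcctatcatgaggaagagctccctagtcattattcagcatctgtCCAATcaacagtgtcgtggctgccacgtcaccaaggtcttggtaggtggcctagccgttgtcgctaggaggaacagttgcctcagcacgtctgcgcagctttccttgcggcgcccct
The Kcnq1ot1 window held 3 CCAAT and 9 CpG dinucleotides, and the Airn window held 0 CCAAT and 3 CpG. Of 32851 promoter windows of 300 bases in the same table, 37.4% held at least 1 CCAAT and 3.37% held at least 3, and the median was 7 CpG. The nearest start of a listed line on the same strand was 0 bp from the Airn start of this table and 8 bp from the Kcnq1ot1 start. At Meg3 the distance was 32249 bp from 1 annotated start and 27847 bp from the other, at Rian 3124 bp and at Mirg 3109 bp, the last from a RefSeq start that lies inside the longer GENCODE gene.

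Airn runs antisense to Igf2r, the receptor that carries insulin-like growth factor 2 to lysosomes, and starts within an intron of that gene. Its annotated span (ENSMUSG00000078247.4) is GRCm38 chr17:12741311-12860136 on the plus strand, 118826 bp. In the mm9 window 57 of 64 lines (89.1%, Wilson 95% interval 79.1 to 94.6%) were on the plus strand, the strand of Airn, and 7 were on the minus strand. The interval covers counting error only, and several lines may be pieces of 1 RNA. Names of the plus-strand lines began with U in 39 cases and with FT in 18, and no BROAD or WHITEHEAD name was present. The meaning of the prefixes was not found in the labels or the file.

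The listed lines reached both ends of Airn. The first line began at the annotated 5′ end, 0 bp away, and the last base listed on the plus strand was 14 bp short of the annotated 3′ end. Both belonged to U017499-2, a line of 3 exons of 114, 146 and 582 nt that spanned 12934177 to 13052988 on mm9 with introns of 117682 and 288 bp. U017499-3 had exons of 95 and 426 nt around an intron of 88400 bp, and FT34360 had exons of 51 and 1062 nt around an intron of 73071 bp. These 3 lines shared the donor side of their first intron, at mm9 position 12934291.

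Other spliced Airn lines started further in. U017499-4 had exons of 81 and 323 nt and an intron of 31385 bp, and U017499-1 had exons of 864 and 511 nt and an intron of 13030 bp. Both introns ended at 13022690, the same position as the 88400 bp intron of U017499-3. FT333898 had exons of 869 and 709 nt around a gap of 66 bp that matched no annotated Airn intron. In all, 6 of the 9 annotated Airn introns were present in the list, and listed exons on the plus strand covered 3443 of 3597 bp (95.7%) of annotated Airn exons.

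Most of the listed Airn sequence was not spliced. The 51 single-exon lines covered 44278 bp (37.3% of the gene span), against 46084 bp for all 57 lines. Summed exon length per line had a median of 842 nt and ranged from 188 to 5137 nt, where the whole list had a median of 513 nt. The longest unspliced line was FT327885, 5137 nt from 12986784 to 12991920. The covered sequence formed 40 separate stretches, of which the longest was 6219 bp, and 18 of the 39 gaps between them were shorter than 1 kb.

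**Figure D2:**
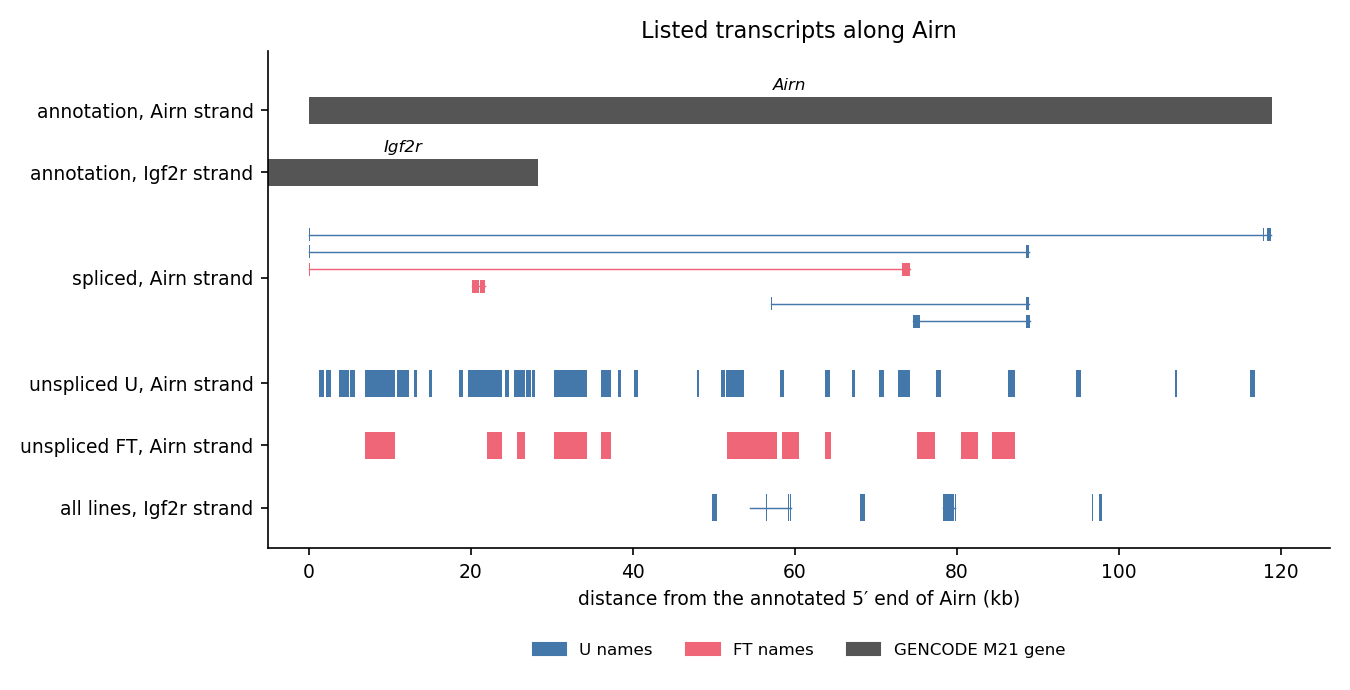
Listed lines along Airn by distance from its annotated 5′ end (kb), with annotated genes in grey, lines of more than 1 exon drawn singly (boxes are exons, lines are introns) and single-exon lines grouped by name prefix. Unspliced lines are dense over the first 40 kb and between 50 and 90 kb, except from 60 to 70 kb, where listed exons covered 15.8%. Within 63 bp of the annotated 5′ end 3 spliced lines begin, and the lines on the strand of Igf2r all begin beyond the overlap with Igf2r.

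Coverage varied along Airn. Within the 28354 bp where Airn overlaps Igf2r, 26 lines began and 59% of the bases were covered on the Airn strand. Over the 90472 bp beyond Igf2r, 31 lines began and 32.4% was covered. In steps of 10 kb the coverage was 62.9%, 37.4%, 67% and 57.6% over the first 4 steps, 6.94% in the fifth and 84.7% in the sixth. The next 3 steps stood at 15.8%, 51.8% and 54.8%. Beyond 90 kb, a boundary chosen after these values were seen, 3 lines began and 7.61% was covered, against 48.8% over the first 90 kb. The longest stretch with no plus-strand exon inside the gene was 11623 bp.

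Some coding bases of Igf2r lay opposite these lines, and how many the overlap with Airn contains was not measured. FT310594 and U052351-1, which shared both ends and were 3699 nt long (12941161 to 12944859), ran opposite 140 bp of Igf2r coding sequence. The remaining plus-strand lines of the window covered no annotated coding bases of Igf2r.

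The 7 minus-strand lines within Airn all had U names and covered 3.11% of its span. They lay in the middle and downstream part of the gene, the first covered base being 49784 bp from the Airn 5′ end, outside the Igf2r overlap. U346899-1 had 4 exons of 53, 104, 105 and 91 nt between 12988612 and 12993661, and its 3 introns matched those of CT030636.2, an annotated gene on that strand. U069774-1 had exons of 1398 and 12 nt around a gap of 74 bp. The longest single-exon line of that strand was U273313-1, with 660 nt.

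Kcnq1ot1 runs antisense to Kcnq1, a potassium channel gene, from a start inside an intron of it. GENCODE M21 gives it (ENSMUSG00000101609.2) as 1 unspliced transcript at GRCm38 chr7:143203458-143296549 on the minus strand, 93092 bp, and RefSeq gives a shorter span of 83437 bp. All 44 lines of the window were on the minus strand, the strand of Kcnq1ot1 (100%, Wilson 95% interval 92 to 100%), and 0 were on the strand of Kcnq1. By name, 33 began with U, 9 with FT and 2 with BROAD.

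Of the 44 lines, 43 lay within the GENCODE span. The 5′ ends of U359522-1 (2729 nt) and FT323292 (2467 nt) were at the same base, 150482444 on mm9, 10 bp inside the annotated start. The 3′ side ended differently in the annotations. FT318731 and U029494-1, the longest line of the window with 4433 nt, both ended at 150399016, which was 0 bp from the RefSeq 3′ end. U242237-1 (400 nt, 150398060 to 150398459) lay 557 bp further downstream, and the last 8697 bp of the GENCODE span held no line. A single line fell outside the gene. FT39050, 1194 nt from 150485092 to 150486285, ended 2638 bp upstream of the annotated start on the same strand.

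Unspliced lines accounted for all of the covered Kcnq1ot1 sequence. The 41 single-exon lines within the gene covered 36984 bp (39.7%), and adding the 2 spliced ones left that value at 36984 bp. BROAD57238 had exons of 36 and 39 nt around an intron of 3648 bp, and BROAD57239 had exons of 73 and 192 nt around an intron of 157 bp. Neither intron is an annotated one. On the RefSeq span 42 lines covered 43.8%. Lines of the window had a median of 604 nt, with a range of 75 to 4433 nt.

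**Figure D3:**
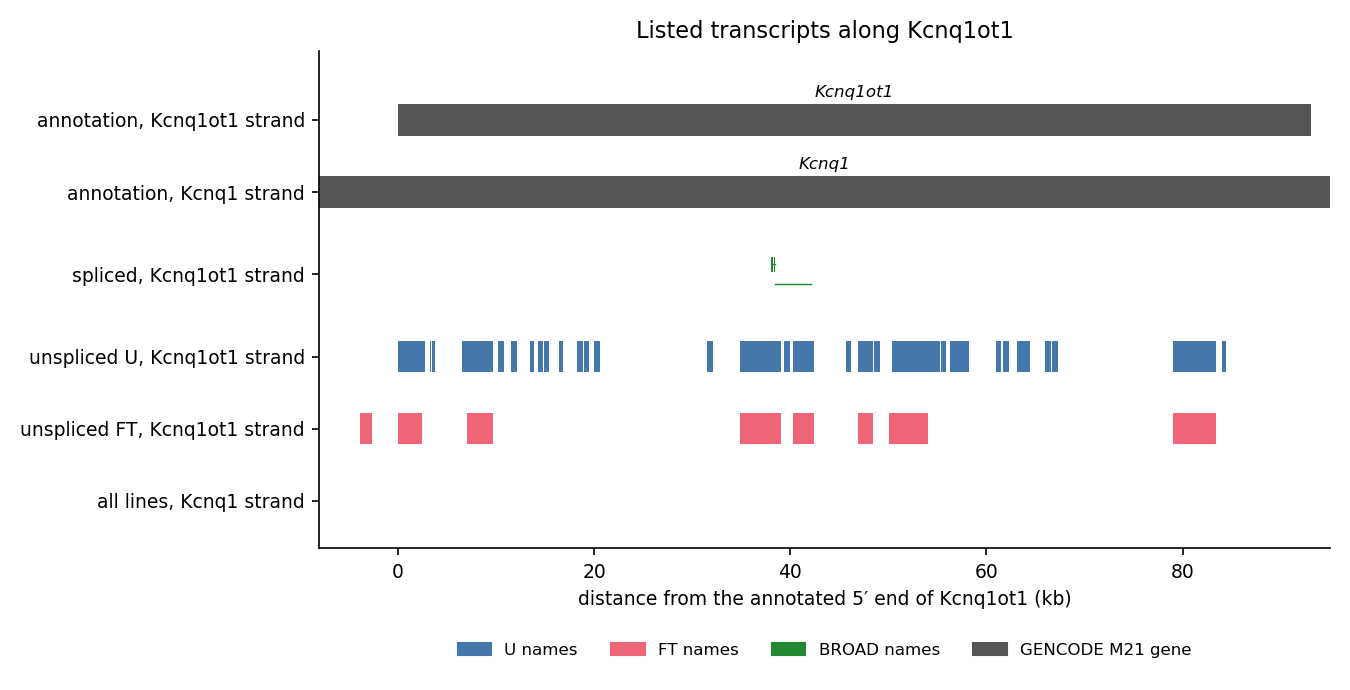
Listed lines along Kcnq1ot1 by distance from its annotated 5′ end (kb), in the same layout as for Airn. The strand of Kcnq1 is empty, 2 BROAD lines are the only spliced ones, and 1 FT line lies upstream of the start.

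Coverage of Kcnq1ot1 was also uneven. It was 62% in the first 10 kb, 41.3% in the second, 5.92% in the third, then 54.4%, 47.4% and 74.8% up to 60 kb. From there it was 35.6%, 9.94% and 38.4%, and 0 in the last 3092 bp of the GENCODE span. The covered sequence formed 31 stretches with a median of 592 bp, the same median as the 40 stretches of Airn, and 21 of 30 gaps were shorter than 1 kb. The longest gap was 11749 bp, from 150403449 to 150415197. FT328436 and U353715-1, which shared both ends and were 4220 nt long, ran opposite 121 bp of Kcnq1 coding sequence.

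**Figure D4:**
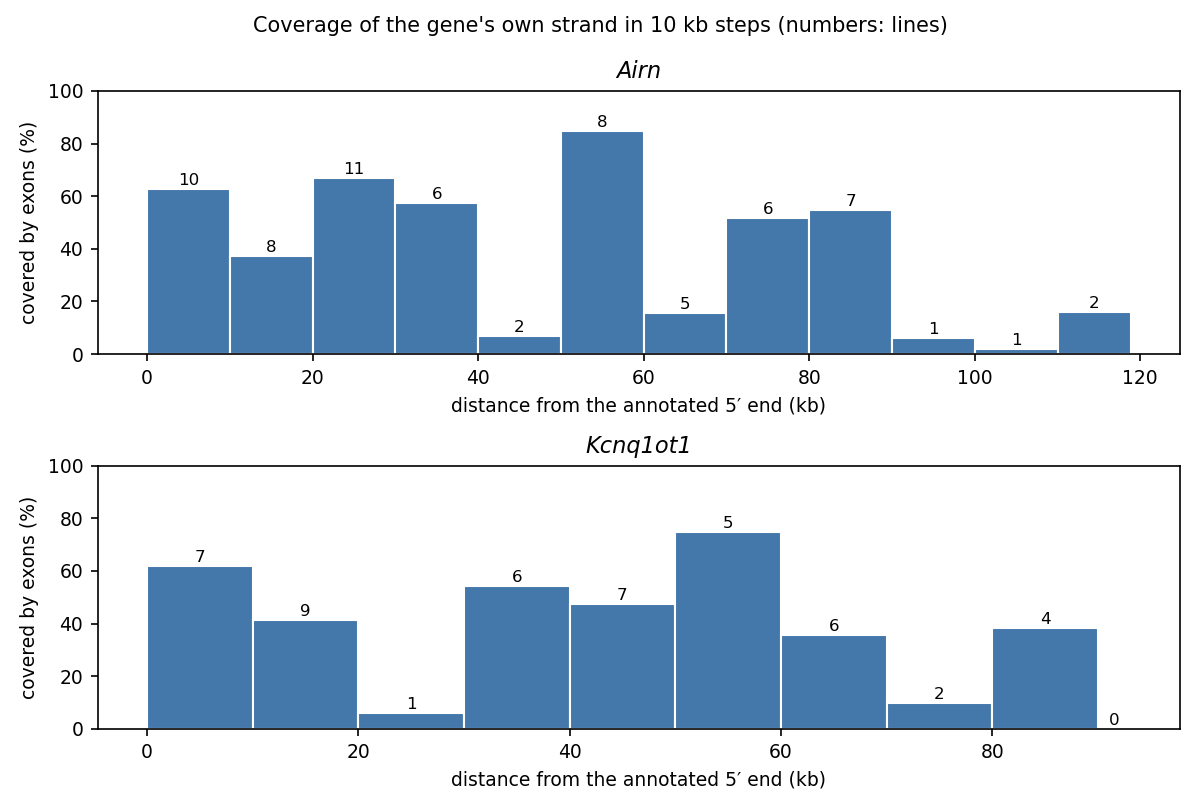
Percent of each 10 kb step along Airn and Kcnq1ot1 covered by exons of lines on the strand of the gene, with the number of lines having exons in the step above each bar; the last step of each gene is shorter. Both genes show covered and nearly empty steps, between 1.88% and 84.7% for Airn and between 0 and 74.8% for Kcnq1ot1.

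Against stretches of equal length on the same chromosomes, both windows held many lines. Chromosome 17 cut into 709 adjacent stretches of 130 kb had a median of 4 lines (quartiles 2 and 8), and 99.7% had fewer lines than the 64 at Airn. Chromosome 7 cut into 1494 stretches of 100 kb had a median of 3 lines (quartiles 1 and 6), and all 1494 had fewer than the 44 at Kcnq1ot1, the most being 38. Exon coverage of the gene strand was 35.4% of the Airn window and 38.2% of the Kcnq1ot1 window, while the better covered strand of these stretches had medians of 1.36% and 1.32%. These stretches include regions without genes. They were cut without regard to genes and also take in both loci, so the comparison is a description of the list.

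H19 is a short, spliced RNA that is abundant in fetal tissues and hosts a microRNA. Its annotated span (ENSMUSG00000000031.16) is GRCm38 chr7:142575529-142578143 on the minus strand, 2615 bp, with up to 5 exons. The window held 0 lines on either strand, and 0 of 2460 bp of annotated H19 exons were covered. Widening the window by 10 kb on each side still gave 0 lines. Empty stretches of this size were common: of 9961 stretches of 15 kb on chromosome 7, 57.4% held no line.

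The flanks of H19 were listed. Downstream of H19 on its own strand, the nearest line, U029484-2, lay 16929 bp beyond the 3′ end, at 149739604 to 149744505. It overlapped FT314077, U029484-1 and FT31245, all of which had introns of Nctc1, a noncoding gene next to H19. FT314077 had 3 exons and a span of 13988 bp. Upstream of H19 on its strand, the nearest line was U234701-1, at 71812 bp, and on the opposite strand BROAD57214, with 2 exons and 184 nt, lay 35925 bp away. Further upstream, U008987-1 and U008987-2 had 4 and 5 exons with introns of Igf2os, the antisense partner of the growth factor gene Igf2. H19 thus lay between listed neighbours on both sides.

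Meg3, Rian and Mirg follow one another on the plus strand and are often treated as 1 long maternal transcription unit. The window held 37 lines, 24 on the plus strand (64.9%, Wilson 95% interval 48.8 to 78.2%) and 13 on the minus strand. The minus-strand lines were all unspliced with U names. The plus strand held 16 U, 3 FT, 4 BROAD and 1 WHITEHEAD names, and exons on it covered 5.45% of the window, against 2.56% on the minus strand. Of 492 stretches of 240 kb on chromosome 12, 95.7% had fewer lines, with a median of 8 (quartiles 4 and 15), and the median coverage was 1.35%.

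Meg3 (ENSMUSG00000021268.17, GRCm38 chr12:109541001-109571726, 30726 bp, up to 10 exons) is the first gene of the unit and a widely used marker of its activity. It had 0 lines on either strand, and 0 of 18089 bp of its annotated exons were covered. The first plus-strand line of the window, U108153-1 (589 nt, from 110811455), began 1519 bp beyond the annotated 3′ end of Meg3. The stretch before Meg3 in the window was empty on both strands.

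The 32213 bp between Meg3 and Rian held 7 plus-strand lines covering 10.3% and 5 minus-strand lines covering 5.55%. Next to Meg3, U108153-1 was followed by U356003-1 (390 nt), U043311-1 (487 nt) and WHITEHEAD1343, which had exons of 177 and 86 nt around an intron of 707 bp. Close to Rian lay U248380-1 (1377 nt) and FT329730 (1361 nt), which shared their 3′ end at 110840391. On the minus strand this interval contains Rtl1, a paternally expressed retrotransposon-derived gene with a role in the placenta. U277520-1, U179204-1 and U094196-1 covered 747 of 6358 bp of Rtl1 exons and 0 of its 5232 coding bases.

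Rian (ENSMUSG00000097451.10, GRCm38 chr12:109603940-109661716, 57777 bp, up to 11 exons) hosts many small nucleolar RNAs. It had 0 plus-strand lines, and 0 of 18234 bp of its annotated exons were covered. Plus-strand lines nevertheless lay close to both ends: FT329730 ended 1759 bp upstream of the annotated start and BROAD10701 began 866 bp beyond the annotated end. The plus strand was free of lines for 60400 bp, from 110840392 to 110900791. On the minus strand, 5 unspliced U lines covered 5.18% of the Rian span, with 4 of them in the first 10 kb, where they covered 22.6%. The longest was U225235-1, 735 nt from 110856503 to 110857237.

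Between Rian and Mirg, 14 plus-strand lines covered 12.6% of 68047 bp, the highest coverage of the intervals measured in this window. BROAD10701 had exons of 49 and 26 nt around an intron of 974 bp. The densest place was B830012L14Rik, an annotated noncoding gene of 7002 bp, where 6 lines covered all 4505 bp of annotated exons and listed ends lay 0 bp from both annotated ends. FT330619 had 3 exons of 544, 210 and 3705 nt there, and its intron of 2497 bp was also that of BROAD10703, which had exons of 46 and 92 nt. The other gap in FT330619 was 44 bp and matched no annotated intron of this gene, which has at most 2 annotated exons. U014399-1 (3961 nt), the longest unspliced line of the window, U331097-1 (541 nt), U139605-1 (527 nt) and FT322253 (2271 nt) were single-exon lines of the same gene. On the minus strand, 2 lines covered 1.54%.

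Mirg (ENSMUSG00000097391.8, GRCm38 chr12:109729764-109749460, 19697 bp, up to 17 exons) hosts a large group of microRNAs. It had 3 plus-strand lines, all of 2 exons. U219813-1 (788 nt) had exons of 94 and 694 nt and began 6 bp from the annotated 5′ end, and its 227 bp intron matched an annotated one. BROAD10704 (326 nt) had exons of 286 and 40 nt around an annotated intron of 366 bp. BROAD10705 (119 nt) had exons of 41 and 78 nt around an intron of 1563 bp. Together they held 2 of the 27 annotated introns and 1120 of 7292 bp (15.4%) of annotated exons.

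The last 15907 bp of Mirg held no plus-strand line. RefSeq starts Mirg further downstream, with a span of 14478 bp, and on that span 0 plus-strand lines were present, so the presence of Mirg in the list rests on the longer GENCODE span. The only minus-strand line, U356561-1 (309 nt), was also the last line of the window, at 110976178 to 110976486. No line followed Mirg in the window.

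**Figure D5:**
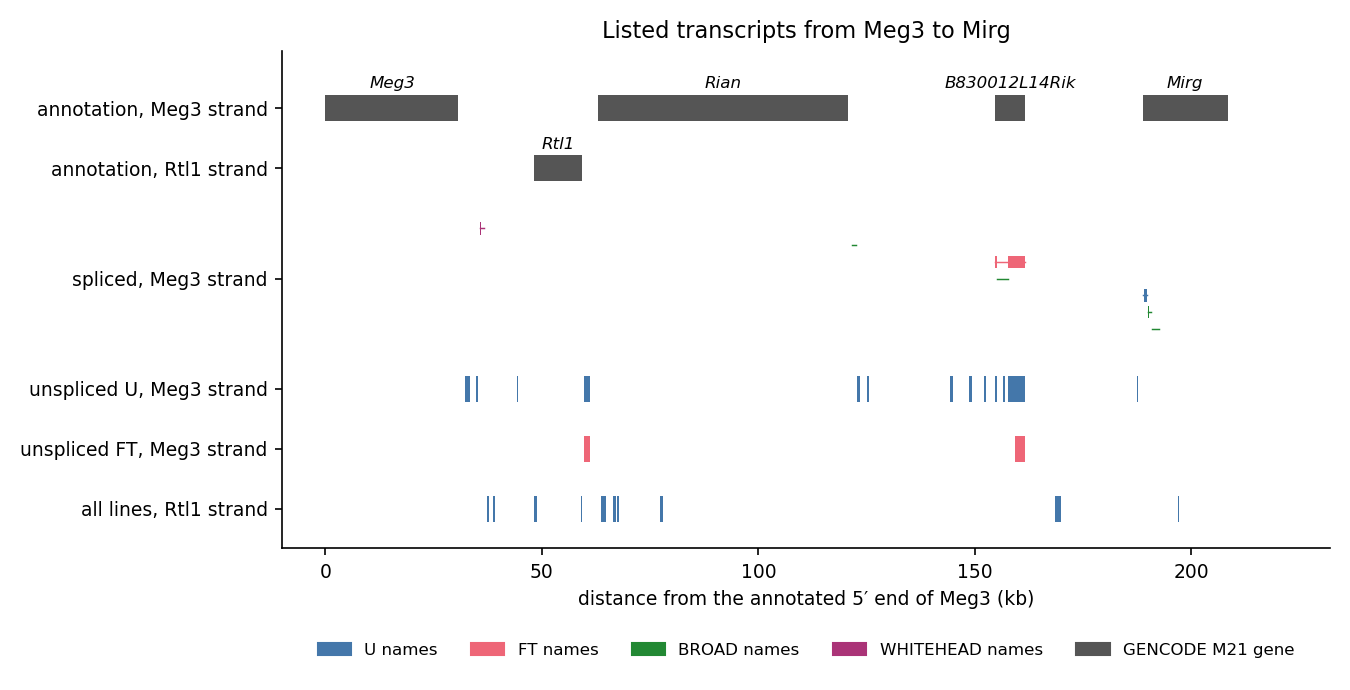
Listed lines from Meg3 to Mirg by distance from the annotated 5′ end of Meg3 (kb), in the same layout as for Airn. The strand of Meg3 is empty over Meg3 and Rian, lines crowd at B830012L14Rik, and the 3 Mirg lines stand at its 5′ end.

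The microRNA hairpins of the 2 maternal loci were almost all outside the listed lines. RefSeq (GRCm38.p6) gave 54 hairpin entries on the plus strand of the Meg3 to Mirg window, among them 1 in Meg3, 3 in Rian and 14 in Mirg. Of these 54, 0 lay in a listed plus-strand line, and exons of such lines covered 5.45% of the window. Meg3 and Rian had no plus-strand line, so their hairpins could lie in none. The single hairpin in H19, Mir675, lay in none either, as the H19 window held 0 lines. Mir1906-1 within Meg3, Mir666 and Mir544 had entries for mature forms only and are not among the 54. On the minus strand 1 of 3 hairpins lay in a line of its own strand, Mir299b within U115839-1 (535 nt, 110948491 to 110949025). Of the plus-strand hairpins, Mir299a lay opposite the same line, U115839-1, and Mir370, within Rian, lay partly opposite the minus-strand line U225235-1. That line ran opposite miR-370-3p but not miR-370-5p. The mature forms that lay within a line or opposite one are given first, with the seed, bases 2 to 8, in capitals, followed by forms from H19 and Meg3 that did neither. Of those shown, miR-299b-3p and miR-299a-3p share a seed.
miR-299b-3p: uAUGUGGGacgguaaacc
miR-299b-5p: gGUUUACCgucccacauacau
miR-299a-3p: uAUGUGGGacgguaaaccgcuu
miR-299a-5p: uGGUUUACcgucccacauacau
miR-370-3p: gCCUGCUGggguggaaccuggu
miR-675-5p: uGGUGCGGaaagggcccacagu
miR-675-3p: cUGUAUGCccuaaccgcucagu
miR-770-5p: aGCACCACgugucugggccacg
Mature microRNAs are far shorter than the fragments sequenced here, so the list bears on their precursors and not on the mature forms.

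Over the 4 windows, 17 of 145 lines (11.7%, Wilson 95% interval 7.45 to 18%) had more than 1 exon, against 29.9% of all 110003, a description without a test. If blocks were not joined over short gaps, 18 lines at Airn and 7 at Kcnq1ot1 would count as spliced. The spliced lines numbered 8 at Airn, 2 at Kcnq1ot1 and 7 at Meg3 to Mirg, and none had more than 4 exons. FT names made up 30 of the 145 lines (20.7%), where they made up 10.7% of the whole list. Of these 30 lines, 20 (66.7%) shared at least 1 end with a U line, near the 70.7% of all 11825 FT lines, so some U and FT lines at these loci describe the same stretch.

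The neighbours of these genes gave a further view of what the list contains. Of 50 other imprinted genes looked up, 39 had annotated transcripts of at least 3 exons, as a match by exon and intron lengths requires, and 6 were matched: Igf2os, Nespas, Snhg14, Nctc1, Xist and A330076H08Rik. All 6 are noncoding, out of 8 noncoding genes that could be matched. None of the 31 protein-coding genes that could be matched was found, Igf2r, Kcnq1, Igf2 and Dlk1 among them. The shares of all annotated noncoding and protein-coding genes that match the list were not measured. These counts therefore describe the genes looked up and do not set imprinted genes apart from others. By the same match Airn was found, and Kcnq1ot1 could not be matched because it is unspliced. H19, Meg3 and Rian had no line of their own strand to match. The Mirg lines had fewer exons than the match requires, though 2 annotated Mirg introns were listed. The reason why some noncoding genes are listed and others are not was not tested.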

How the data were processed

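Per the labels' protocols, DNase-treated RNA gave 1 polyadenylated and 1 ribosomal-depleted library, with the second cDNA strand marked by dUTP and removed. The submitters' processing notes name TopHat, with no version, and mm9. The deposited file is 1 BED list of 12 columns that its header calls an initial pool on mm9, and its assembly and filters are not given in the sources used here. Positions, strands, names and blocks were used as deposited. The score column deposited by the authors was used for no result.

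Exons were made by joining blocks less than 30 bp apart. A line belonged to a window with an overlap of at least 1 bp. Coverage is the union of exons on 1 strand, clipped to the window or gene. Chromosomes were cut into adjacent stretches of the window length from the first to the last listed position. No mm9 annotation was used here. Genes came from GENCODE M21 (GRCm38), with RefSeq spans (GRCm38.p6) as an alternative, and no coordinate was converted. Lines of at least 3 exons were matched by runs of intron, exon and intron lengths on the same strand. Single introns were matched within 300000 bp of a window and kept where they shared 1 position difference between the builds, a method chosen once the file's layout was known. The run match was tested on simulated data. Of the 6 genes, 5 were in the RefSeq promoter table. Python 3.11.15, scipy 1.17.1 and matplotlib 3.10.9 were used.

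The genes, windows and lists were chosen with earlier results of these data known. Per window, the lines named were those of more than 1 exon, the longest single-exon line of each strand, lines without a U name if at most 10, and the lines nearest the edges. Other lines were named after their values were seen. Listed imprinted genes were named if matched, and the 4 coding genes named as not found were chosen afterwards. Wilson 95% intervals cover counting error only. Alternatives varied the joining of blocks, the overlap, the exon length, the window width, U names and gene spans.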

Additional observations from a re-analysis of the deposited data

How the results depend on the processing

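Of 83 alternatives, 64 stayed within 1.5 times the count or coverage, or inside the Wilson interval of a strand share, and 19 moved further. Part of the 64 are values of 0 that stayed at 0, at H19, Meg3 and Rian. The 19 include the match to the annotation of the other strand, which serves as a control. Leaving out U names left 18 lines at Airn, 11 at Kcnq1ot1 and 8 at Meg3 to Mirg. It lowered the coverage of these windows to 23.6%, 22.5% and 2.75% and that of Airn, Kcnq1ot1 and Mirg to 25.8%, 22.9% and 2.26%. The share on the strand of the gene became 100% at Airn and 100% at Meg3 to Mirg, since every opposite-strand line there has a U name, and 2 spliced lines remained at Airn. Without joining of blocks 18 lines at Airn and 7 at Kcnq1ot1 counted as spliced. With lines of at least 200 nt only, 1 spliced line was left at Kcnq1ot1 and 4 at Meg3 to Mirg. On the RefSeq span the coverage of Mirg was 0. A match by 1 shared intron length in the window found 2 of the 6 genes, Airn and Mirg, where the match by runs found 1, and the annotation of the other strand found 0. The gene-span alternatives were chosen after seeing the data. H19, Meg3 and Rian had 0 lines of their own strand under every alternative run for them. Most of these alternatives could only remove lines, so they could not change a count of 0. Lines could be added only by widening the H19 window by 10 kb, or by the RefSeq spans, which nearly equal the GENCODE spans of these 3 genes. No paired analysis was possible because the labels give no replicate numbers and the list has no values per sample. Leaving out a replicate was not possible either, with 1 pooled list.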

Other observations

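Among the other imprinted genes, Nespas, the antisense RNA of the Gnas cluster, was matched by 4 lines with BROAD, FT and U names and up to 5 exons, from 174106657 to 174120937 on the minus strand of chromosome 2 (mm9). Xist, the RNA that coats the inactive X chromosome, was matched by 2 U lines with up to 8 exons, from 100655707 to 100678572 on the minus strand of chromosome X. Snhg14, the host RNA of small nucleolar RNAs in the Snrpn domain, was matched by FT325033, with 3 exons from 66563294 to 66579519 on chromosome 7. A330076H08Rik was matched by U028658-2, with 5 exons from 69075339 to 69127242 on the same chromosome. Under the annotation of the other strand 0 of the 50 genes were matched.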
